A study of Mus musculus with 24 samples.

Results

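Transcripts of 7 genes linked to epithelial differentiation, Lgals2, Vsig1, Clca3b, Fermt1, Sult1c2, Sprr2b and Sprr2a3, were followed through 24 RNA-seq libraries of mouse small cell lung cancer (SCLC) lines. These 7 of the 25239 genes in the table were chosen from these same data, because they were high in untreated Type D cells or were strongly lowered when p53 was restored. The choice set no numeric limit and was made with all 8 groups in view. Levels of the 7 genes in Control and Restored cells are therefore a description without a test, and the tests on the libraries with cyclosporin A come from the same 6 lines and are no independent evidence of the pattern. The name gut-like genes of Type D did not hold for all 7. Lgals2, Vsig1, Clca3b and Fermt1 were far higher in the Type D lines, but Sult1c2 was higher in the Type V lines, and levels of Sprr2b and Sprr2a3 overlapped between the types in Control.

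The lines came from lung tumors of mice that carried Rbl2 flox/flox, Rb1 flox/flox and Rosa26 FlpO-ER alleles and, as Trp53 XTR/XTR, a gene trap that Cre can turn on. Adenoviral Cre under the CMV promoter removed Rb1 and Rbl2 and set the trap, so that p53 was not made. Adding 4-hydroxytamoxifen (4-OHT) activates the FlpO recombinase, which cuts out the trap and restores p53. All 24 libraries lacked Rb1 and Rbl2 by design, and each line was derived from a tumor and kept in culture. Whether other cells of the lung were carried along was not tested. The study sorted the lines by their fate after restoration. Type D lines 4711-1, 4711-18 and 4716-11 (replicates 1, 2 and 3) lost viability, and Type V lines 4711-11, 4716-10 and 4716-14 (replicates 1, 2 and 3) stayed viable. Each line was sampled after 72 h as Control (vehicle), Control + CsA, Restored (4-OHT) and Restored + CsA, which gave 8 groups of 3 lines. Cyclosporin A (CsA) binds cyclophilins, and in the study it protected Type D lines from death after restoration. The study proposes that this death involves cyclophilins A and E. It sets the death apart from necrosis through cyclophilin D and the mitochondrial permeability pore. Levels are TPM values, shares of all transcripts scaled for transcript length and to 1 total per library, and values of a group are given below in the order of the replicates.

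Most of these genes belong to epithelia that line the gut or cover the body. Galectin-2, from Lgals2, is a small lectin that binds galactose sugars and is made by gastrointestinal epithelium. Vsig1 encodes an immunoglobulin-domain adhesion protein of stomach epithelium, and Clca3b a member of the CLCA family of secreted regulators of calcium-activated chloride channels. Fermt1 encodes kindlin-1, which binds integrin tails in epithelial cells and helps to activate integrins. Sult1c2 is a cytosolic sulfotransferase, which moves sulfate onto small phenolic molecules. The Sprr2 genes encode small proline-rich proteins that are cross-linked into the cornified envelope of squamous epithelium and that other epithelia make under stress.

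Trp53, Cdkn1a, the gene of the p21 cell cycle inhibitor, and Mdm2, the gene of the ligase that degrades p53, matched the labels. Trp53 lay at 10.7 to 13.9 TPM in Type D Control and 181 to 213 TPM in Type D Restored, and at 13.6 to 14.8 and 189 to 253 TPM in the same groups of Type V. Cdkn1a lay at 37.5 to 129 TPM in Control and at 1068 to 2540 TPM in Restored over both types, and Mdm2 at 61.9 to 73.4 and 554 to 1584 TPM. TPM keeps no record of depth, which is unknown, and 11853 to 12651 genes per library reached 1 TPM. Most of the neuroendocrine genes listed were near 0. Neurod1, Calca, Dll3, Chgb, Scg2 and Scg3 did not exceed 0.694 TPM in any library. Chga was listed at 0 in all 24 libraries, and Syp, the gene of synaptophysin, did not exceed 1.41 TPM, while the adhesion gene Ncam1 lay at 4.46 to 27.3 TPM. Insm1 reached 49.6 TPM in Type V and at most 3.39 TPM in Type D, and Uchl1 40.9 and 2.66 TPM, with a difference of -3.96 ± 0.46 log2 in Type D under CsA (adjusted p = 1.13e-05). The 10 fibroblast markers summed to 1.19 to 2.73 TPM in Type D Control and to 354 to 506 TPM in Type V Control, and 6 of 7 tested were called lower in Type D under CsA, so they moved with type, opposite to Lgals2, Vsig1, Clca3b and Fermt1. Their part in the differences between types was not tested. Of the 10 leukocyte markers, Cd3e and Tyrobp were at 0 in all libraries and Ptprc did not exceed 0.15 TPM, while Cd68, a lysosomal protein, rose with restoration in Type D under CsA by 1.96 log2 (adjusted p = 0.000164). In bulk RNA, fewer cells that express a gene and less RNA per cell cannot be told apart.

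RefSeq promoter windows were matched for all 7 genes. The 250 bases before the annotated start are shown for 3 genes that fell with restoration, because 2 of them, Lgals2 and Vsig1, stand for the Type D pattern and Sprr2a3 for the pattern shared by both types. Capitals mark matches to any of 5 motifs, each searched on both strands. The TATA box was searched as TATAAA. The AP-1 element was searched as TGANTCA. The cell cycle homology region (CHR), an element found in genes of the late cell cycle, was searched as TTTGAA. The element of GATA factors was searched as AGATAA. The last motif was the p53 half-site consensus.
Sprr2a3, GRCm38.p6, plus strand, chr3:92285054-92285303: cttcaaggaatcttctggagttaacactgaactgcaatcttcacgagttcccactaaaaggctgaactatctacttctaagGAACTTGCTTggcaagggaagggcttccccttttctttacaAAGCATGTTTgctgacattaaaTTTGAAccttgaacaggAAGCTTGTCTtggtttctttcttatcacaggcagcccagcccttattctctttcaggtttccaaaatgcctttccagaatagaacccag
Lgals2, GRCm38.p6, minus strand, chr15:78855530-78855779: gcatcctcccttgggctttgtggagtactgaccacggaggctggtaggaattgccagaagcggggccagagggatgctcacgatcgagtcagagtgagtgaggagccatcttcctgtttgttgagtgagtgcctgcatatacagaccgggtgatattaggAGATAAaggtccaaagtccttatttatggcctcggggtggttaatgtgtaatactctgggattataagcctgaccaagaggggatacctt
Vsig1, GRCm38.p6, plus strand, chrX:140907358-140907607: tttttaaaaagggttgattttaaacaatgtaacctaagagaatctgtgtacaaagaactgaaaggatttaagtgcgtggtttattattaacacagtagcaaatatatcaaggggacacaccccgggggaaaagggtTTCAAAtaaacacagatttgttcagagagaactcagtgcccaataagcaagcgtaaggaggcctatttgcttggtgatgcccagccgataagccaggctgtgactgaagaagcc

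The Sprr2a3 window held 3 matches to the p53 half-site, beginning at bases -169, -128 and -89 from the start, and 1 CHR match at -106 between the second and the last of them. At least 1 half-site match was found in 7.13% of 32851 promoter windows of this length, and at least 3 in 9 windows (0.0274%). This count of 3 was looked up after the matches in Sprr2a3 had been seen. Of the 9 windows, 3 are those of Sprr2a1, Sprr2a2 and Sprr2a3, whose sequences are one repeated unit, since 222 of 222 bases of the Sprr2a3 window were identical to either neighbor at an offset of 28 bases. Vsig1 had a CHR match at -114 and Sult1c2 at -152, and CHR matches were found in 15.99% of windows. Lgals2 had a GATA match at -90 (9.99% of windows). Sprr2b had an AP-1 match at -195 (6.75% of windows) and a TATA box at -29 (12.4%). Clca3b had an AP-1 match at -58 that overlapped a CHR match at -55, and Fermt1 had no match. Positions are counted from RefSeq starts, which differ for some genes from the GENCODE starts given below. The Sult1c2 window, chr17:53845959-53846208, lies inside the GENCODE span of that gene. A match is a string of letters, and binding at these windows was not measured here.

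Lgals2 was the most abundant of the 7 genes in the unrestored Type D groups, while after restoration the mean of Clca3b was higher. Type D Control lines held 1816, 1051 and 1048 TPM, and Type V Control lines 2.70, 45.9 and 4.21 TPM, where line 4716-10 held the value of 45.9. Its mean of 1305 TPM in Type D Control ranked 81 among all genes. After restoration Lgals2 was at 240.1, 34.1 and 164 TPM in Type D, which is 13.2%, 3.25% and 15.7% of the Control level of each line. In Type V Restored it was at 2.83, 6.47 and 2.23 TPM. The fall in Type D left every Type D line above every Type V line, and within Type V it was line 4716-10, the line with the highest start, that kept the smallest share of it, 14.1%.

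With CsA present Lgals2 took the same course. It was at 1865, 542 and 1178 TPM in Type D Control + CsA and at 116, 36.4 and 169 TPM in Type D Restored + CsA. The fitted change was -3.55 ± 1.02 log2 (SE, limma adjusted p = 0.0336), lower in 3 of 3 lines. This call was lost when any of the 3 Type D lines was left out, with adjusted p of 0.153 to 0.203, while the change stayed between -3.93 and -3.33 log2. Type V Lgals2 changed by -1.24 ± 1.02 log2 (adjusted p = 0.599).

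Vsig1 had the steepest fall of the Type D genes. In Type D Control it was at 53.7, 100.2 and 87.0 TPM, and after restoration at 1.97, 2.17 and 7.31 TPM, or 3.66%, 2.16% and 8.40% of each line's start. Type V Control held 0, 6.62 and 0.115 TPM, again with line 4716-10 as the highest, and Type V Restored held 0.0484, 0.913 and 0 TPM. Restored Type D lines 4711-1 and 4711-18 thus lay below the untreated Type V line 4716-10. Under CsA the Type D levels were 58.8, 84.0 and 92.6 TPM in Control and 3.33, 3.31 and 9.04 TPM in Restored, a fitted change of -3.77 ± 0.72 log2 (adjusted p = 0.00182). The call did not hold without line 4711-18 (adjusted p = 0.0575, -3.50 log2).

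Clca3b and Fermt1 marked Type D and fell less with restoration than Lgals2 or Vsig1, though all 3 Type D lines were lower for each. Clca3b was at 230.0, 387 and 387 TPM in Type D Control and 219, 306 and 300.4 TPM in Type D Restored, so that 95.1%, 79.2% and 77.6% of the level remained. Its Type V Control values were 1.21, 13.5 and 1.15 TPM. In Type V Restored they were 18.2, 5.64 and 1.05 TPM. The Type V lines went apart, since 4711-11 changed by 3.12 log2 and 4716-10 by -1.13 log2, and with CsA these lines changed by 3.09 and -1.21 log2. Type D Clca3b under CsA was at 196, 401 and 335 TPM in Control and at 86.8, 305 and 219.7 TPM in Restored, a change of -0.72 ± 0.89 log2 (adjusted p = 0.733).

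Fermt1 was even among Type D lines, with 108, 109.8 and 115 TPM in Control and 79.9, 75.8 and 102 TPM in Restored. Type V lines held 0, 1.22 and 0.315 TPM in Control and 0.0529, 1.32 and 1.69 TPM in Restored. No treatment brought a Type V line near the Type D level. With CsA, Type D Fermt1 was at 112, 103 and 103 TPM in Control and 73.6, 80.2 and 74.1 TPM in Restored, and the change of -0.48 ± 0.38 log2 was not called (adjusted p = 0.532) although all 3 lines were lower.

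Sult1c2 ran against the Type D label. Its levels were 11.4, 11.4 and 11.1 TPM in Type D Control against 149, 47.1 and 198 TPM in Type V Control, so every Type V line lay above every Type D line. Restoration left 0.227, 0.109 and 1.38 TPM in Type D and 24.9, 13.4 and 23.4 TPM in Type V. The gene fell in all 6 lines, and each restored Type V line held more of it than any untreated Type D line. Under CsA it was at 29.4, 17.6 and 16.7 TPM in Type D Control and 0.554, 0 and 1.07 TPM in Type D Restored, a fall by 3.87 log2 (SE 0.53, adjusted p = 6.88e-05). In Type V it was at 189.5, 85.1 and 252 TPM in Control + CsA and 19.9, 16.5 and 61.3 TPM in Restored + CsA, a fall by 2.50 log2 (SE 0.53, adjusted p = 0.00475). The Type V call was lost when only the 2 compared groups were fitted (adjusted p = 0.137) and without line 4711-11 (adjusted p = 0.10).

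Sprr2a3 fell by a similar amount in every line of both types. In Control it was at 19.5, 37.8 and 15.9 TPM in Type D and 47.9, 17.3 and 14.8 TPM in Type V, and the ranges overlapped. In Restored cells it was at 0.780, 3.56 and 1.05 TPM in Type D and 3.43, 1.96 and 1.74 TPM in Type V. Between 4.00% and 11.8% of the start remained over the 6 lines. Under CsA the gene went from 30.1, 34.2 and 26.8 TPM to 1.58, 3.38 and 2.10 TPM in Type D, a fall by 3.25 log2 (SE 0.47, adjusted p = 0.000107). In Type V it went from 28.0, 20.4 and 12.9 TPM to 6.30, 2.88 and 1.64 TPM, a fall by 2.28 log2 (SE 0.47, adjusted p = 0.00351), and this call was lost without line 4716-10 (adjusted p = 0.0560) and when only the 2 compared groups were fitted (adjusted p = 0.0933). Of the 2808 windows of 75 bases in Sprr2a3 transcripts, 47.5% also occur in Sprr2a1 or Sprr2a2, which the table lists at 0 in all 24 libraries, so reads of the 3 copies cannot be told apart with certainty.

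Sprr2b was at 15.3, 33.5 and 12.8 TPM in Type D Control and 0.475, 0.229 and 0 TPM in Type D Restored. Type V Control held 9.58, 16.5 and 1.90 TPM and Type V Restored 2.39, 1.02 and 1.41 TPM. Line 4716-14 had the lowest start, and restored Type V lines lay above restored Type D lines. Under CsA Type D went from 13.5, 57.7 and 18.4 TPM to 0, 0.634 and 0.962 TPM, a fall by 4.11 log2 (SE 0.63, adjusted p = 0.000207). Type V went from 3.08, 8.28 and 3.81 TPM to 4.43, 2.11 and 0.364 TPM, a change of -0.99 ± 0.63 log2 (adjusted p = 0.439) with line 4711-11 higher. Only 3.94% of its 75-base windows are shared with another gene, Sprr2a1.

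**Figure D1:**
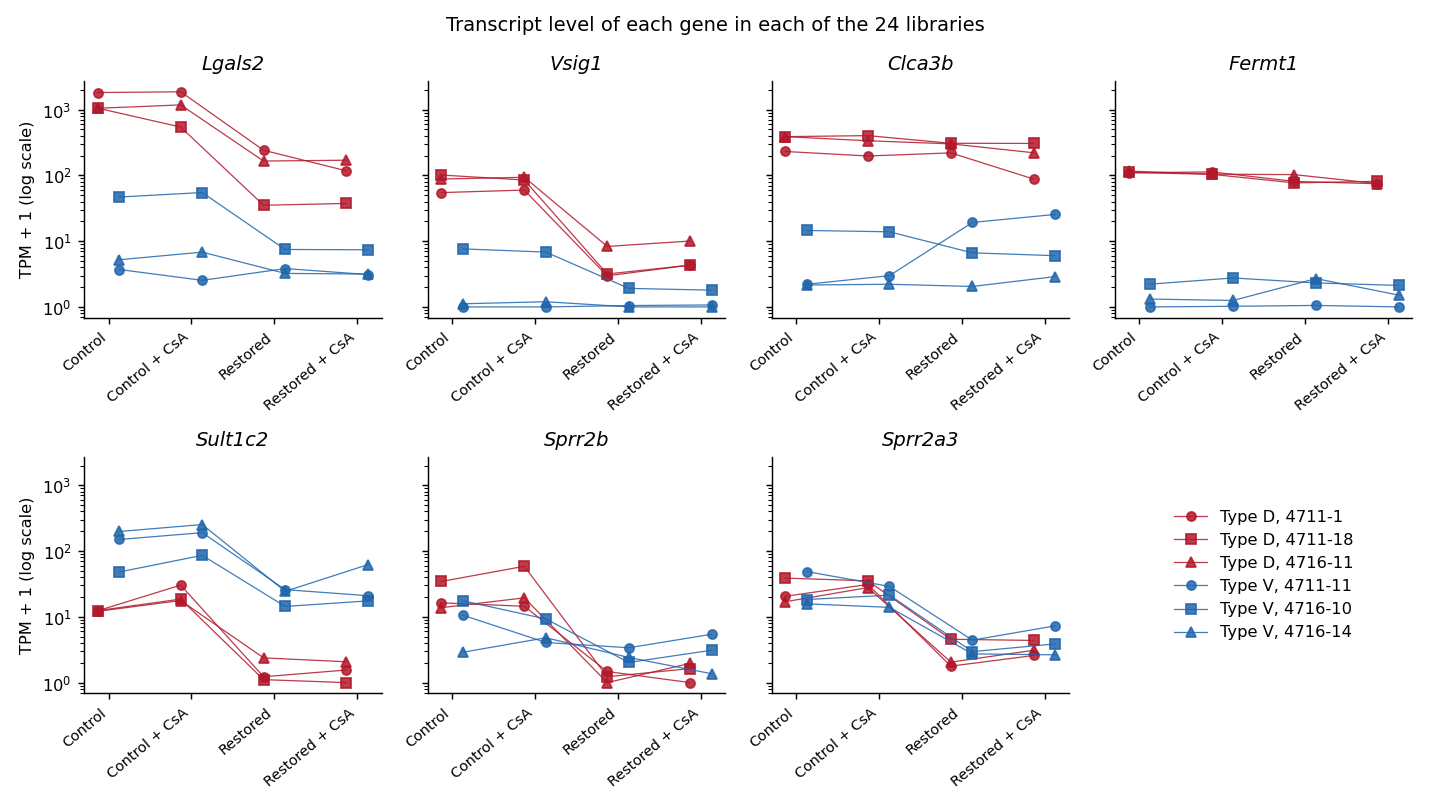
Level of each of the 7 genes in each library, as TPM + 1 on a log axis, by treatment, where red is Type D, blue is Type V, each symbol is a line and thin lines join the 4 libraries of a line. Lgals2, Vsig1, Clca3b and Fermt1 are higher in all 3 Type D lines than in all 3 Type V lines at each treatment, Sult1c2 is lower, and the Sprr2 genes overlap in Control.

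Across the 2 types, restoration under CsA lowered 5 of the 7 genes in Type D, where 1.88% of the 14104 genes tested were called lower and 3.53% higher. In Type V it lowered 2 of 7, Sult1c2 and Sprr2a3, where 1.77% were called lower and 2.84% higher. No member was called higher in either type. Called genes passed an adjusted p of 0.05 with 1 log2 or more of change. Some of the 7 were chosen because restoration lowered them in the same lines, so nothing is read from these counts. In Control against Restored, without CsA, mean changes in Type D were -3.50 log2 for Lgals2, -4.20 for Vsig1, -0.26 for Clca3b, -0.38 for Fermt1, -3.06 for Sult1c2, -4.02 for Sprr2b and -3.22 for Sprr2a3. In Type V the same means were -1.10, -0.69, 0.64, 0.39, -2.43, -1.67 and -2.87 log2.

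Whether the response to restoration differed between types was tested in the libraries with CsA. Without the line as a block, 0 of 7 members and 0.0142% of all genes were called by limma, and 2 of the 7 and 430 of all genes had an unadjusted p under 0.05. With the cell line as a block, 2 of 7 members were called, against 2.32% of all genes. For Vsig1 the change in Type D minus that in Type V was -3.07 log2 (SE 0.56 and adjusted p = 0.00614 with the block, SE 1.02 and adjusted p of 1 without it). For Sprr2b it was -3.12 log2 (SE 0.71 and adjusted p = 0.0206 with the block, SE 0.89 and adjusted p = 0.859 without it). Differences of -2.31 log2 for Lgals2, -1.36 for Sult1c2 and -0.97 for Sprr2a3 were not called with the block (adjusted p = 0.0958, 0.0910 and 0.0769). Vsig1 was at 0 to 5.82 TPM in Type V Control + CsA, so its Type V levels were low before restoration.

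**Figure D2:**
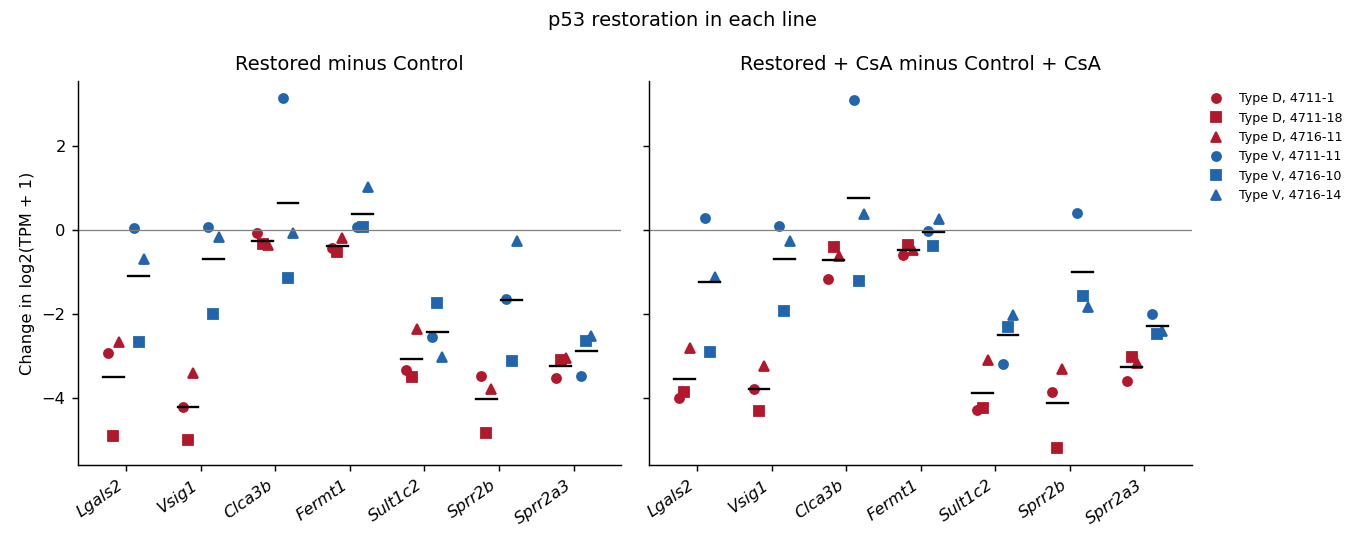
Change of each gene with p53 restoration in each line, in log2(TPM + 1), without CsA on the left and with CsA on the right, where red is Type D, blue is Type V and black bars are means of 3 lines. Sult1c2 and Sprr2a3 lie below 0 in all 6 lines in both panels, Clca3b spans -1.13 to 3.12 among Type V lines on the left, and Fermt1 lies at -0.53 to -0.18 in Type D and at 0.062 to 1.03 in Type V on the left.

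Before restoration, the types were compared in the Control + CsA libraries. Lgals2 was higher in Type D by 6.76 ± 1.02 log2, Fermt1 by 6.13 ± 0.38, Clca3b by 6.05 ± 0.89 and Vsig1 by 5.28 ± 0.72 (SE, adjusted p = 0.000172, 2.49e-09, 0.000137 and 6.13e-05). Fermt1 had the smallest error of the 4. Its Type D lines were even, and its Type V lines held 0.0215, 1.75 and 0.253 TPM, where log2(TPM + 1) compresses differences. Sprr2b was higher by 2.17 ± 0.63 log2 (adjusted p = 0.0253), a call lost without line 4711-18 (adjusted p = 0.139), 4716-11 (0.0748) or 4711-11 (0.0961) and when only the 2 groups were fitted (adjusted p = 0.102). These 5 stood where 4.81% of all genes were called higher in Type D. Sult1c2 was lower in Type D, at a difference of -2.90 ± 0.53 log2 (adjusted p = 0.00107), where 5.07% were called lower, and Sprr2a3 differed by 0.61 ± 0.47 log2 (adjusted p = 0.414). Some of the 7 genes were chosen as high in Type D in these same lines. Nothing is therefore read from the calls against these shares, here or after restoration with CsA.

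After restoration with CsA, 3 of the 4 Type D genes still separated the types. Fermt1 was higher in Type D by 5.71 ± 0.38 log2, Clca3b by 4.57 ± 0.89 and Lgals2 by 4.44 ± 1.02 (adjusted p = 8.64e-09, 0.00215 and 0.00692), where 3.76% of all genes were called higher. The Lgals2 call was lost without line 4711-1 (adjusted p = 0.0513), 4716-11 (0.0774) or 4716-14 (0.0503). Vsig1 was higher by 2.202 ± 0.72 log2 and missed the threshold (adjusted p = 0.0536), but passed it without line 4716-10 (adjusted p = 0.00151). Sult1c2 was lower in Type D, at -4.26 ± 0.53 log2 (adjusted p = 2.51e-05), where 4.06% were called lower.

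CsA itself moved none of the 7 genes past the threshold. For CsA alone, 0% of all genes were called by limma in Type D and 0% in Type V, with 114 and 54 genes at an unadjusted p under 0.05, and for CsA added to restored p53 it was 0.0142% in Type D and 0% in Type V, with 229 and 100 genes at an unadjusted p under 0.05. Sult1c2 had the largest member difference with CsA alone in Type D, 0.81 ± 0.53 log2, and 0.51 ± 0.53 log2 in Type V (unadjusted p = 0.147 and 0.350, adjusted p of 1 for both). Its level was higher with CsA in 6 of 6 lines, from 127% to 258% of the Control value. Fermt1, by contrast, differed by -0.07 ± 0.38 log2 with CsA alone in Type D.

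**Figure D3:**
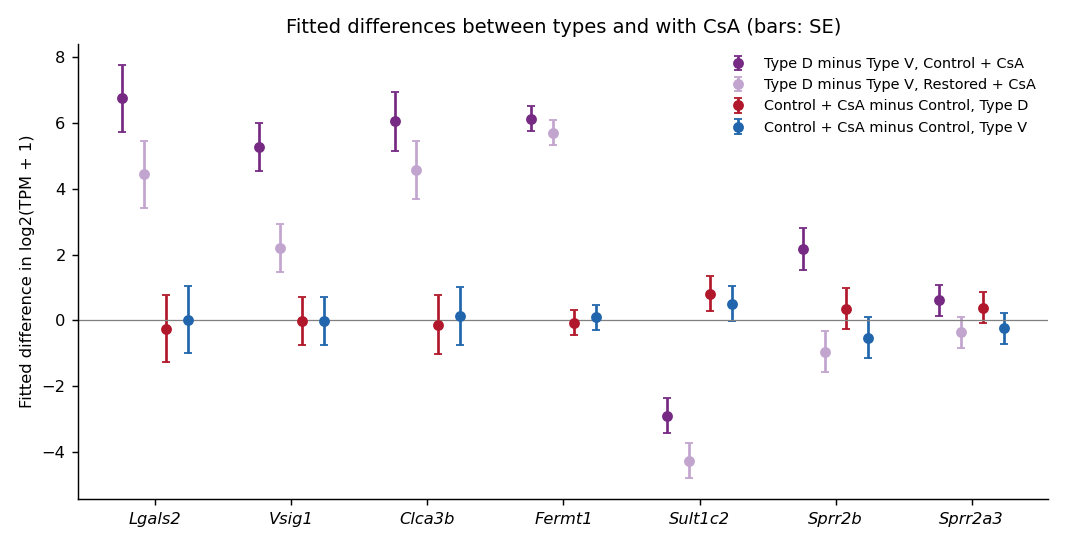
Fitted differences in log2(TPM + 1) for the 7 genes, with bars for the standard error, between types under CsA before restoration (dark purple) and after it (light purple), and with CsA alone in Type D (red) and Type V (blue). The differences with CsA lie between -0.52 and 0.81, while those between types reach 6.76 for Lgals2 and -4.26 for Sult1c2.

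The gene families of the members behaved unevenly. In the Sprr2 family, 7 relatives besides Sprr2b and Sprr2a3 were tested, and by limma 0 were called, and 0 had an unadjusted p under 0.05, with restoration under CsA in either type. Sprr2h was the most abundant, at 585, 241 and 586 TPM in Type D Control, 1074, 1123 and 482 TPM in Type D Restored and 0.636, 86.1 and 11.0 TPM in Type V Control. It was higher in Type D by 5.02 ± 1.59 log2 under CsA (adjusted p = 0.0394), and changed with restoration by -0.02 ± 1.59 log2 in Type D. Sprr2k went the other way between types, at -4.38 ± 1.16 log2 (adjusted p = 0.0151). Sprr2g was a trait of 1 Type V line, at 406 TPM in Control and 1288 TPM in Restored of 4716-10 and at most 4.80 TPM in the Control and Restored libraries of the other 5 lines. Sprr2b and Sprr2a3 were thus the members of the family called lower with restoration in Type D.

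**Figure D4:**
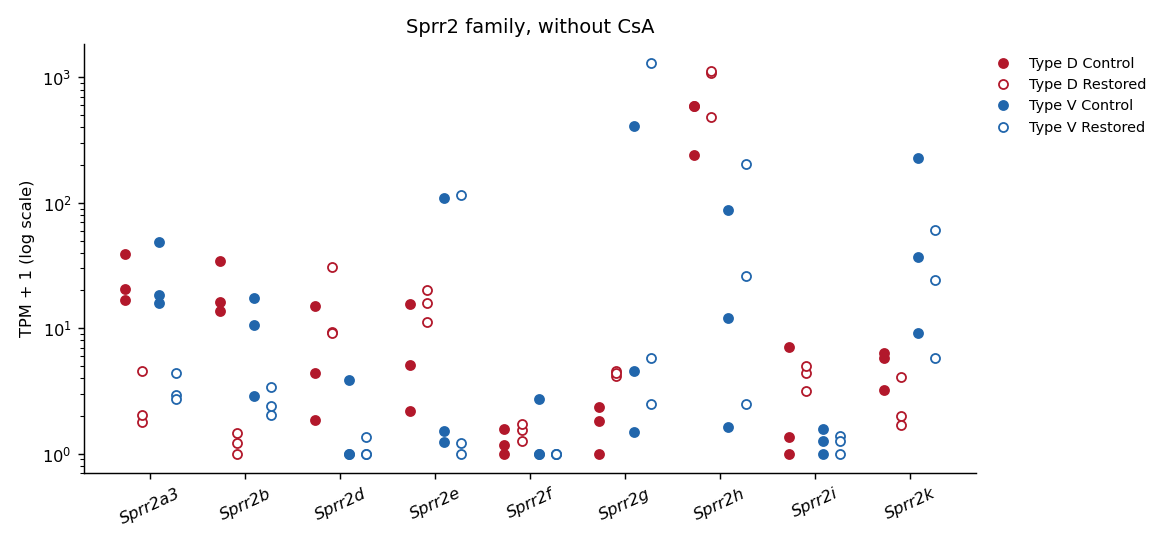
Level of the 9 Sprr2 genes that passed 1 TPM in any library, without the pseudogene Sprr2j-ps, as TPM + 1 on a log axis, with filled symbols for Control, open symbols for Restored, red for Type D and blue for Type V, 3 lines per group and no CsA. Sprr2a3 and Sprr2b drop in Type D with restoration, from at least 12.8 TPM to at most 3.56 TPM, while Sprr2h stays at 241 to 1123 TPM in Type D.

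Among galectins, Lgals4, a galectin of intestinal epithelium, was the one relative called under CsA, higher in Type D by 2.14 ± 0.33 log2 (adjusted p = 0.000229) and lower with restoration in Type D, at -1.25 ± 0.33 log2 (adjusted p = 0.0222), at 4.43 to 6.70 TPM in Type D Control. Lgals8 changed with restoration in Type D by 0.91 ± 0.25 log2 under CsA (adjusted p = 0.0245), short of 1 log2, and was called higher without CsA, by 1.11 log2 (adjusted p = 0.00499). Lgals3 and Lgals9 were abundant in both types and not called under CsA. Of the CLCA family, Clca3a2 and Clca1 were called higher in Type D under CsA, by 1.48 and 1.24 log2, both from levels of at most 5.15 TPM in Control. Only 2.13% of the 75-base windows of Clca3b are shared with Clca3a1 or Clca3a2. Fermt2, the kindlin of most other cell types, differed by -1.02 ± 0.39 log2 (adjusted p = 0.0876). Among relatives of Vsig1, Gpa33, the A33 antigen of intestinal epithelium, was higher in Type D by 2.89 ± 0.66 log2 (adjusted p = 0.00569). Sult2b1, the cholesterol sulfotransferase, was higher in Type D by 2.57 ± 0.76 log2 (adjusted p = 0.0273), opposite to Sult1c2. Sult1a1, a phenol sulfotransferase, was at 1.10, 2.70 and 4.17 TPM in Type D Control + CsA and at 0.106, 0 and 1.23 TPM in Type D Restored + CsA. Under CsA it was higher in Type D by 1.15 log2 (adjusted p = 0.0172) and changed with restoration by -1.34 ± 0.31 log2 (adjusted p = 0.00887). Without CsA neither was called, at 0.86 and -0.84 log2 (adjusted p = 0.0769 and 0.0889). Igsf11 and Vsig10l, further relatives of Vsig1, differed between types by 2.17 and -1.41 log2 (adjusted p = 0.0322 and 0.0166).

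Known genes of gut epithelium gave the wider setting. Of 22 enterocyte genes listed, 16 passed the filter on low values, which a gene could do through Type D alone. This holds for every list below too. Nothing is therefore read from the direction of the counts of a list against the shares of all genes. Of these, 8 were higher in Type D under CsA and 0 lower, where 4.81% of all genes tested were called higher and 5.07% lower, with a median difference of 2.16 log2 against -0.13 over all genes. The difference lay above 0 for 14 of the 16. Anpep went the other way in its highest values over all libraries, 261 TPM in Type V and 2.10 TPM in Type D. Among those not tested, Sis did not exceed 0.0321 TPM in any library, Apoa4 0.0656 TPM and Lct 0.557 TPM. The 8 included Tmigd1, an adhesion protein of the brush border epithelium, by 5.49 ± 0.69 log2 (adjusted p = 2.46e-05), Cdh17, the liver-intestine cadherin, by 4.90 ± 0.77 log2 (adjusted p = 0.000245), and Vil1, which bundles actin in microvilli, by 4.09 log2 and Cdhr2, a cadherin between microvilli, by 3.52 log2 (adjusted p = 0.000735 and 0.000684). Of 17 gut transcription factors, 6 were higher, among them Hnf4a by 5.88 ± 1.34 log2 and Cdx2 by 4.54 ± 1.27 log2 (adjusted p = 0.00558 and 0.0210), and 1, Sox2, a factor of foregut and lung, was lower, at -4.75 ± 0.84 log2 (adjusted p = 0.000709). Isx, an intestinal homeobox factor, was higher by 2.32 log2 (adjusted p = 0.00223) and was at 0 in every Type V library.

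Of 16 goblet and mucus genes listed 9 were tested, of which 4 were higher and 1 lower, against the same 4.81% and 5.07%, with a median of 1.24 log2. Agr2, which was not tested, was listed at 0 in all libraries, and Muc2 and Fcgbp did not exceed 0.308 and 0.378 TPM. The trefoil factors Tff2 and Tff1 and the mucin Muc1 were higher by 6.11, 3.72 and 3.61 log2 (adjusted p = 0.0113, 0.00908 and 0.00439), and the glycosyltransferase Galnt12 differed by -1.43 log2 (adjusted p = 0.0491). Tff2 was uneven among Type D lines, at 414, 6.04 and 151 TPM in Control + CsA, and did not exceed 0.576 TPM in Type V. Of 20 stomach genes listed 6 were tested, and those not tested included Gkn1, Gkn3, Muc6, Pgc, Atp4a and Atp4b, none of them above 0.367 TPM in any library. Of the 6, 3 were higher and 0 lower, with a median of 3.37 log2, namely Ctse, an aspartic protease of gastric surface cells, the tetraspanin Tspan8 and the annexin Anxa10 (4.73, 3.72 and 3.01 log2, adjusted p = 0.00784, 0.0359 and 0.0455). Of 13 tested general epithelial genes 5 were higher and 0 lower, with a median of 2.03 log2, led by the tight junction genes Cldn3 and Tjp3 (4.71 and 4.33 log2) and the keratins Krt19 and Krt18 (4.22 and 3.44 log2). Of 14 tested genes of the cornified envelope, 3 were higher and 2 lower. The plakins Ppl and Evpl were higher by 3.08 and 2.19 log2, and Lor (loricrin) and Sprr3 differed by -3.51 and -1.14 log2, so this list had no common direction. Of 12 lung epithelium genes listed 7 were tested, of which 0 were higher and 1, Trp63, was lower (-3.48 ± 0.76 log2, limma adjusted p = 0.00434). Their median was 0.21 log2, with 4 of 7 above 0. The 12 genes summed to 3.86 to 179 TPM in Type D Control and 15.8 to 35.5 TPM in Type V Control. Sftpb reached 92.9 TPM in Type D and 1.55 TPM in Type V over all libraries.

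The same lists were followed through restoration under CsA in Type D, which lowered 1.88% of all genes tested and raised 3.53%. The lists are short, so nothing is read from a list without a call. Restoration under CsA lowered 3 of 16 enterocyte genes, Tmigd1 with a change of -3.63 ± 0.69 log2, Rbp2, the intestinal retinol-binding protein, with -2.28 ± 0.39 and Lgals4 as above (adjusted p = 0.00175 and 0.000646 for the first pair), with a list median of -0.79 log2 against 0.09 over all genes. Of the 17 gut transcription factors limma called 0, with 1 at an unadjusted p under 0.05, and Hnf4a was at 178 to 234 TPM before and 189 to 203 TPM after. Cdx2 was at 101 to 116 TPM before and 48.1 to 66.8 TPM after. Goblet and mucus genes gave 0 calls of 9 and stomach genes 0 of 6 by limma, with 2 and 0 at an unadjusted p under 0.05. The median of the 9 goblet and mucus genes was -0.82 log2, with 1 of 9 above 0. Muc1 was at 39.4, 79.6 and 46.8 TPM in Type D Control + CsA and at 5.96, 10.8 and 14.9 TPM in Type D Restored + CsA, without overlap, and was not called (-2.30 ± 0.79 log2, adjusted p = 0.0814). In Type V limma called 0 of 16 enterocyte genes, with 1 at an unadjusted p under 0.05, where 1.77% of all genes were called lower and 2.84% higher. Of 14 tested genes of the cornified envelope, 1, Krt4, changed by -1.04 ± 0.27 log2 in Type D (adjusted p = 0.0168). No gene of that list was called higher under CsA, whereas Ivl (involucrin) was in Type D without CsA, by 3.25 log2 (limma adjusted p = 0.0142). Under CsA 9 of the 14 were above 0, with a median of 0.23 log2. The summed level of the 20 genes of the list lay at 664 to 3371 TPM in Type D Control + CsA and at 5103 to 10941 TPM in Type D Restored + CsA. Most of that sum after restoration was Sprr1a, a small proline-rich protein gene named after its values were seen, at 1193, 127 and 2999 TPM before and 4616, 10302 and 7904 TPM after (3.23 ± 1.12 log2, adjusted p = 0.0834, not called). Cldn3, with a change of -1.55 ± 0.46 log2 (adjusted p = 0.0398), was the 1 general epithelial gene called lower.

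Line 4716-10 stood apart among the Type V lines. In Control it held the highest Type V level of Lgals2, Vsig1, Clca3b and Fermt1, and also of Cdx2 (39.4 TPM against 0.148 and 5.86), Hnf4a (22.7 against 0.367 and 0.312) and Cdh17 (13.8 against 0.646 and 0.672). In the same line Sult1c2 was the lowest of Type V, at 47.1 TPM. All of these levels were between those of the Type D lines and those of the other Type V lines.

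The genes whose level was most like that of each member over the 24 libraries were found by the root mean square difference of log2(TPM + 1) after centering each gene. For Lgals2 these were Cldn2 (1.02 log2), Cdh17 (1.07) and Tmigd1 (1.09), and for Vsig1 they were Tmigd1 (0.682), Fgf1 (0.899) and Neurl3 (0.962). Clca3b had Camsap3, S100a14 and Fermt1, each within 1.06 log2, and Fermt1 had S100a14 (0.521), Gcnt3 and Gipc2. Sult1c2 had Aspa (0.994), Tprg and Col16a1. The nearest genes of Sprr2a3 were Nek2 (0.622), Depdc1a and Ect2, and Sprr2b had Elovl6 (0.812), Sprr2a3 (0.830) and H2ax. Of these 21 nearest genes, 9 stayed with a pseudocount of 0.1 and 7 with a correlation as the measure, so the order is loose.

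In GENCODE release M21 on GRCm38, the genes span chr15:78850860-78855529 on the minus strand (Lgals2), chrX:140907608-140939472 on the plus strand (Vsig1), chr3:144822623-144849357 on the minus strand (Clca3b), chr2:132904389-132945906 on the minus strand (Fermt1), chr17:53829637-53846339 on the minus strand (Sult1c2), chr3:92316620-92318085 on the plus strand (Sprr2b) and chr3:92285417-92291405 on the plus strand (Sprr2a3).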

How the data were processed

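RNA-seq of 24 libraries of 6 lines was deposited by the authors as a table of TPM values, used as deposited. The authors made stranded mRNA libraries and read them single-end. Their methods name kallisto or HISAT2 without saying which gave the table, and both mm10 and GRCm39, so the build behind the values is uncertain and positions are from other sources (GENCODE M21 on GRCm38 and RefSeq on GRCm38.p6). TPM holds no counts, so depth is unknown.

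Values were analysed as log2(TPM + 1), which understates changes of low genes. Genes at 1 TPM or more in at least 3 libraries, 14104 of 25239 and all 7 members, were fitted with limma 3.58.1 in R 4.3.3 (1 coefficient for each of 8 groups, eBayes with trend, Benjamini-Hochberg over all tested genes within a comparison, two-sided). Line and replicate were taken from the labels. Libraries of a line are 1 culture line under 4 treatments. Each type has 3 lines, but p-values between types use 1 spread pooled over all 24 libraries. The fit treats the 4 libraries of a line as separate, so these p-values assume more independent libraries than there are lines. Pairing is by cell line, as labelled. After removal of group means, libraries of 1 line had r between 0.599 and 0.929 (median 0.760, 36 pairs), against -0.727 to 0.0438 for other lines of a type (96 pairs). The line block was an alternative, which comparisons between types cannot take. Further settings tried were a pseudocount of 0.1, a fit of all genes, a minimum of 5 TPM, quantile normalization, median-ratio scaling, only the groups compared, and each line left out. The fits were tested on simulated data. Shared sequence was counted as exact 75-base windows of GENCODE transcripts. Genes were named by these rules: the 7 members, their family relatives, the 4 called genes of largest change in a list, and the 3 genes nearest to each member. The members and the lists were chosen with earlier results of these data known. Figures used matplotlib 3.10.9 in Python 3.11.15. 1 marker gene is not reported here.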

Additional observations from a re-analysis of the deposited data

Results flagged for a closer look

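Vsig1 is listed here because its response to restoration under CsA differed between types in the fit with the cell line as a block, by -3.07 log2 (Type D minus Type V). Sprr2b is listed for the same reason, with a difference of -3.12 log2. Neither was called without the block, and both genes were chosen from these same lines. In Type V Control + CsA, Vsig1 was at 0, 5.82 and 0.198 TPM, so it had little room to fall in lines 4711-11 and 4716-14. Fermt1 is listed because all 3 Type D lines were lower and all 3 Type V lines higher in Restored than in Control, and the mean changes differed by -0.77 log2. The Fermt1 difference was not tested, it concerns libraries that served to choose the gene, and the Type V levels were at most 1.69 TPM.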

How the results depend on the processing

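Of 679 values of single genes under an alternative, 628 kept their direction and their side of the threshold, 20 lost a call, 6 gained one and 25 changed sign. Every sign change was in a comparison without a call, with a main value of at most 0.76 log2 in size. Of the 25, 22 were in comparisons of CsA against no CsA. The cause of these changes was not tested.

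For restoration under CsA in Type D, 5 members were called, 3 with a pseudocount of 0.1 (without Lgals2, adjusted p = 0.0524, and Vsig1, adjusted p = 0.0896) and 3 to 4 with a line left out, and Lgals2 also missed the threshold with no filter (adjusted p = 0.0523). In Type V, 2 were called, 1 with the pseudocount of 0.1, 0 with only the groups compared and 1 to 2 with a line left out. For the difference of the responses 0 were called, 2 with the line block and 0 to 1 with a line left out, where leaving out Type V line 4716-10 gave Vsig1 -3.69 log2 (adjusted p = 0.0496). The line block changed no other call of a member. Members called between types numbered 5 to 6 in Control + CsA and 3 to 5 in Restored + CsA with a line left out. Vsig1 passed the threshold in Restored + CsA with quantile normalization (adjusted p = 0.0340) and with only the 2 groups (adjusted p = 0.0460), and Sprr2b missed it in Control + CsA with a pseudocount of 0.1 (adjusted p = 0.108).

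Over all genes, the line block raised the calls from 763 to 1366 for restoration in Type D, from 650 to 1124 in Type V, from 2 to 327 for their difference, from 0 to 2 for CsA alone in Type D and from 2 to 18 for CsA added to restored p53 in Type D. With only the groups compared the calls were 276 for restoration in Type V, 649 and 598 between types in Control + CsA and Restored + CsA (from 1393 and 1103), 1 for the difference and 0 for CsA added in Type D. The difference gave 0 calls with a pseudocount of 0.1, 5 with no filter and 1 to 12 with a line left out. CsA added in Type D gave 0 calls with a pseudocount of 0.1 or a minimum of 5 TPM and 1 with quantile normalization or median-ratio scaling. Leaving out line 4716-11 gave 456 calls for restoration in Type D, and leaving out 4711-1 or 4716-11 gave 697 or 700 between types in Restored + CsA.

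Sign changes with another scale were Vsig1 with CsA alone in Type D, 0.0126 log2 with quantile normalization and 0.0127 with median-ratio scaling, Lgals2 and Vsig1 with CsA alone in Type V, -0.0314 and 0.0958 with a pseudocount of 0.1, Sult1c2 with CsA added in Type D, 7.89e-05 with quantile normalization, and Vsig1 with CsA added in Type V, 0.0125 with a pseudocount of 0.1. With a line left out, restoration under CsA in Type V ranged from -0.41 to 1.74 log2 for Clca3b and from -0.20 to 0.12 for Fermt1, and Sprr2a3 between types in Restored + CsA from -0.70 to 0.0316. CsA alone in Type D ranged from -0.46 to 0.10 for Lgals2 and from -0.0822 to 0.11 for Vsig1. In Type V it ranged from -0.16 to 0.31 for Lgals2, -0.0805 to 0.0519 for Vsig1, -0.0156 to 0.24 for Clca3b, -0.0194 to 0.17 for Fermt1 and -0.47 to 0.0221 for Sprr2a3. CsA added to restored p53 ranged in Type D from -0.50 to 0.0672 for Lgals2, -0.17 to 0.0955 for Sult1c2 and -0.0750 to 0.69 for Sprr2b, and in Type V from -0.0450 to 0.0160 for Vsig1, -0.0142 to 0.82 for Sult1c2 and -0.10 to 0.65 for Sprr2b.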
